A study of Mus musculus with 12 samples.

Results

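The non-additive part of the response to both mutations in mouse blood stem and progenitor cells (HSPC) was measured gene by gene, from the mRNA of double mutant, single mutant and wild type marrow. For each gene, the term was the log2 level in CBL/RUNX1 mutant cells, minus that in CBL mutant cells, minus that in RUNX1 mutant cells, plus that in wild type cells. It is 0 where the double mutant change equals the sum of the single mutant changes, and an additive sum of log2 values is a product of folds. Values are TPM, the length-corrected share of a gene among a library's transcripts. Genes entered with at least 1 TPM in at least 2 of the 8 HSPC libraries, which held for 12421 of the 28987 genes in the table (42.9%). The second highest library of Hc (1.0005 TPM) and of Foxd2 (1.003 TPM) lay just inside that limit, and that of Gnmt (0.9996 TPM) and of Zfp558 (0.9989 TPM) just outside.

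CBL is a ubiquitin ligase that tags activated cytokine and growth factor receptors for degradation, and mutant forms prolong receptor signalling into the RAS-MAPK and JAK-STAT pathways. RUNX1 is a transcription factor that binds DNA with its partner CBFB and steers blood stem cells, megakaryocytes, lymphocytes and granulocytes along their lineages. Both genes are recurrently mutated in myelodysplastic syndrome, a clonal disorder of blood formation, and the series describes the mutant cells as such a clone.

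There were 4 groups of 2 libraries, all from C57BL/6 mice: CBL/RUNX1 mutant, CBL mutant, RUNX1 mutant and wild type HSPC. Per the labels' protocols, the cells came from the bone marrow of individual mice, were enriched by selection for CD117, the receptor Kit, and the mutant clone was then sorted by FACS. How the mutations were introduced, the animals' age and how wild type cells were sorted are not given in the sources used here, so a difference in preparation and an effect of genotype cannot be told apart. The series' other 4 libraries, of Ly6G+ cells, entered only an alternative fit.

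Kit was at 174 scaled TPM in the first RUNX1 mutant library and between 28 and 41.7 in the other 7, and mature cell mRNA was abundant as well. The 8 mast cell and basophil markers summed to 1269 scaled TPM in that same library and to between 62.6 and 179 in the others. Of the 1269, Cpa3 gave 896 and Gata2, also a progenitor marker, 118. The basophil markers Mcpt8 (20.3) and Prss34 (10.2) were below both wild type libraries there, while each of the other markers was at its highest. The neutrophil genes S100a8 and S100a9 took 8.11% and 9.54% of the TPM of the double mutant libraries, 26.9% and 21.5% of the CBL mutant, 13.3% and 27.0% of the RUNX1 mutant and 28.9% and 31.4% of the wild type ones. Immunoglobulin genes took at most 0.00888% of the TPM in double mutant, 0.0999% in CBL mutant and 2.16% in RUNX1 mutant libraries, and 6.41% and 6.63% in wild type ones. In bulk samples, fewer cells of a type and less RNA per cell cannot be told apart. The RUNX1 mutant pair stood apart: the log2 difference between its replicates had an SD of 0.717 over the genes tested, against 0.358 in the double mutant, 0.378 in the CBL mutant and 0.303 in wild type. Since this pair enters every term, some of the results are also given with 1 of its libraries left out. Levels below are TPM scaled between libraries, by factors of 0.700 to 1.32, and fold changes and terms are on the scale log2(scaled TPM + 1).

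Across the 12421 genes the term lay near 0 for most. Its median was 0.03 (log2), its 5th and 95th percentiles were -1.18 and 0.89, and 1285 genes (10.3%) had a term of at least 1 in size. The median SE of a term was 0.293, against a median absolute term of 0.362, so a typical term was of the order of its error. With limma across all genes and Benjamini-Hochberg adjustment, 2 genes had an adjusted p under 0.05, 0.0161% of those tested, and both were lower than the sum of the single changes. At an unadjusted p under 0.05 there were 2398 genes (19.3%), of which 1429 (11.5%) were above and 969 (7.8%) below the sum. In the same fit, 1378 genes (11.1%) were called for the double mutant against wild type, 566 higher (4.56%) and 812 lower (6.54%). The CBL mutant had 69 called genes (0.556%), 39 higher (0.314%) and 30 lower (0.242%). The RUNX1 mutant had 6 (0.0483%), 1 higher (0.00805%) and 5 lower (0.0403%). These 3 comparisons share the wild type libraries with each other and with the term.

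**Figure D1:**
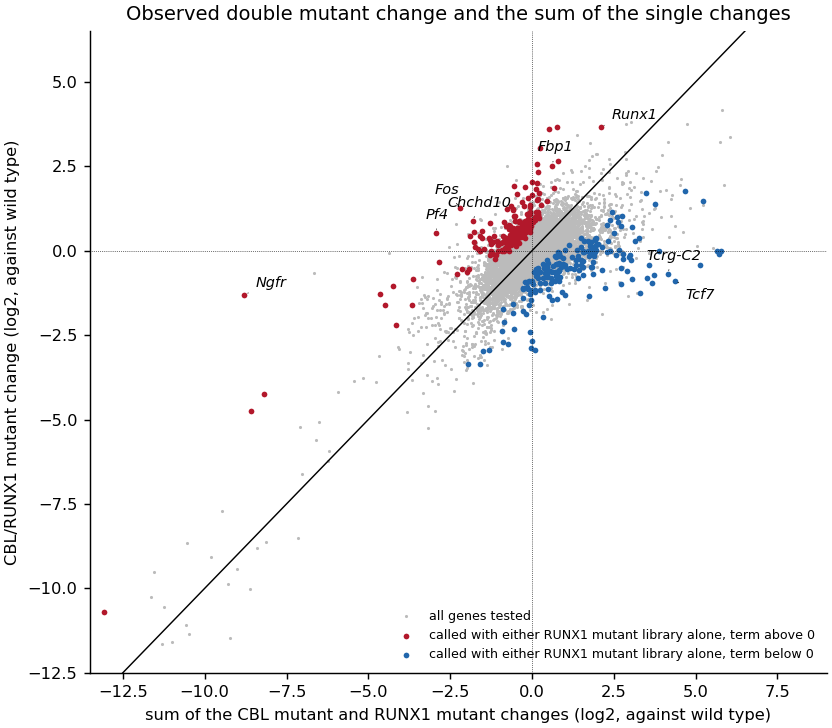
Log2 change of CBL/RUNX1 mutant HSPC against wild type (vertical axis) and the sum of the CBL mutant and RUNX1 mutant changes (horizontal axis) for the 12421 genes tested, with the line of equality. Points in red (235) and blue (185) are the genes called with either RUNX1 mutant library alone, and Tcf7 and Tcrg-C2 lie far below the line, with large sums and double mutant changes below 0. Without scaling the same selection gives 90 genes above and 279 below.

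The 2 called genes are genes of T lineage cells that were high in CBL mutant libraries alone. Tcf7, which encodes the T lineage transcription factor TCF1 (chromosome 11, GRCm38), had 0.786 and 1.04 scaled TPM in double mutant, 92.4 and 59.1 in CBL mutant, 2.81 and 2.05 in RUNX1 mutant and 2.36 and 2.70 in wild type libraries. Both CBL mutant values lay above all others, and both double mutant values below all others. Tcf7 rose by 4.41 (log2, adjusted p = 0.00129 by limma) in the CBL mutant against wild type, whereas its double mutant change was -0.88 (adjusted p = 0.0615), which gave a term of -5.24 ± 0.35 (SE, adjusted p = 0.00849). Tcrg-C2, a constant segment of the T cell receptor gamma chain (chromosome 13), had 0.165 scaled TPM in 1 double mutant library and was listed at 0 in the other, with 26.5 and 23.8 in CBL mutant, 0.884 and 1.23 in RUNX1 mutant and 0.605 and 0.891 in wild type libraries. Its term was -4.83 ± 0.30 (SE, adjusted p = 0.00849). Its levels near or under 1 TPM outside the CBL mutant mean that the pseudocount of 1 sets part of that size. The term of Tcf7 moved with it too, to -6.13 with a pseudocount of 0.1 and -3.72 with 5. Near-identical segments may share reads with Tcrg-C2, so its level is uncertain. Both terms were called with either RUNX1 mutant library alone, but leaving out any one of the 6 other libraries raised the adjusted p to between 0.0512 and 0.146, with terms between -5.56 and -4.70. Both calls were also lost with the replicate number as a block (adjusted p = 0.063 each) and with all 12 libraries in the fit (0.162 for Tcf7 and 0.0687 for Tcrg-C2). Tcf7 was lost without a filter (0.0517) and Tcrg-C2 with a pseudocount of 0.1 (0.0685), and over the alternatives that leave out no library the adjusted p ranged between 0.00196 and 0.162.

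The list of T and natural killer cell genes, which holds Tcf7 itself, lay mostly in the same direction. Of its 19 genes 14 were tested, and 13 of these, Tcf7 included, had a term below 0, against 48.2% of all genes tested. By limma 9 had an unadjusted p under 0.05, all below 0 and Tcf7 among them, against 7.8% of all genes. The median term was -1.64 beside 0.03 over all genes. It depended on the setting, at -3.48 with a filter of 5 TPM, -3.31 with a pseudocount of 0.1 and -0.80 with 5. Lck, the kinase that starts T cell receptor signalling, had 0.362 and 1.03 scaled TPM in double mutant, 35.8 and 20.4 in CBL mutant, 2.15 and 1.26 in RUNX1 mutant and 1.35 and 2.83 in wild type libraries, a term of -3.91 ± 0.54 (SE, adjusted p = 0.0749). The granzyme gene Gzma had terms of -3.46 and -3.11 with the first and the second RUNX1 mutant library alone, and the receptor segment Trbc1 of -4.60 and -4.57. Gzma was at 15.6 and 6.71 scaled TPM in CBL mutant and at most 0.337 in any other library. It passed the filter only through the CBL mutant, so a term below 0 was set by the filter. Any list member that entered this way adds to the counts below 0 by the choice of filter, and such members were not counted. The pattern did not cover all lymphoid markers. Cd3e, a core subunit of the receptor complex, was at most 0.265 scaled TPM in any library and listed at 0 in both double mutant ones. Nkg7, a cytotoxic granule gene, had 7.52 and 8.24 scaled TPM in double mutant, 93.8 and 226 in CBL mutant, 21.8 and 104 in RUNX1 mutant and 217 and 256 in wild type libraries, so that here the CBL mutant and wild type overlapped. The summed level of the 8 T and natural killer markers was 12.1 and 12.8 scaled TPM in double mutant, 326 and 351 in CBL mutant, 32.1 and 113 in RUNX1 mutant and 230 and 275 in wild type libraries. The sum holds Tcf7, Lck, Trbc1 and Gzma themselves, and in wild type it was nearly all Nkg7. Without Nkg7 it was 4.61 and 4.56 in double mutant, 232 and 125 in CBL mutant, 10.3 and 8.89 in RUNX1 mutant and 12.4 and 18.2 in wild type libraries. The 3 markers left without Nkg7 and those 4 genes, Cd3e, Cd3d and Ccl5, summed to 3.08 and 1.68 in double mutant, 6.62 and 7.05 in CBL mutant, 3.995 and 4.45 in RUNX1 mutant and 7.58 and 8.87 in wild type libraries. The part of T and natural killer cells in the result was not tested.

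Promoter sequence around these genes is shown because RUNX1 is one of the mutated factors and its family recognises TGTGGT and TGCGGT. The 300-base windows are from RefSeq (GRCm38.p6), run 5′ to 3′ on the minus strand from 250 bases before to 50 after an annotated start, and capitals mark a match to either word on either strand. The first is chr11:52282965-52283264 of Tcf7, with no match, and the second is chr4:129573592-129573891 of Lck, with 1 match. From an atg before its annotated start, the Tcf7 window reads on to its end without a stop codon. It may thus be partly coding sequence, and its lack of a match says little about the promoter of Tcf7.
Tcf7: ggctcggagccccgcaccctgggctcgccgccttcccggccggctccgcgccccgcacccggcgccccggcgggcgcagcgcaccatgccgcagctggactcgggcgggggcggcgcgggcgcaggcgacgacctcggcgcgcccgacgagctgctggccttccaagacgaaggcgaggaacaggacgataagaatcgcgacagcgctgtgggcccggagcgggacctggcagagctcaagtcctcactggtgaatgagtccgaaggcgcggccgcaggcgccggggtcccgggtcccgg
Lck: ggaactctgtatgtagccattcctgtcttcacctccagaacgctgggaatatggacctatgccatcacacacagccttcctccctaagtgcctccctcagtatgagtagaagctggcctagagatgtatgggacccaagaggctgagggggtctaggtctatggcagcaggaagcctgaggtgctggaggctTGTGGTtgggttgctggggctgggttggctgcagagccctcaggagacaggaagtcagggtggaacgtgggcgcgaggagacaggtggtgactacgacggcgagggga
The other window of each gene held no match. Over all genes tested, 21.6% of 11825 windows held a match, close to the 22.4% of all 32851 windows in the table. Among the genes called with either RUNX1 mutant library alone, the share was 22.2% of 207 windows where the term was above 0 and 22.7% of 172 where it was below 0, with 311 of the 420 genes matched to a window. By class it was 28.6% of 63 windows for genes that exceeded the sum, 27.1% of 48 for those that fell short and 20.1% of 268 for those that reversed it. A match is a description of letters, not of binding.

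Sorting all genes by size and sign, the double mutant change exceeded the sum of the single changes in 3641 genes (29.3%), fell short of it in 4972 (40.0%) and had the opposite sign in 3808 (30.7%). The sorting uses the same values as the term and is no test of it. Among the 2398 genes with an unadjusted p under 0.05, 266 exceeded the sum, 497 fell short and 1635 (68.2%) reversed it. This set was picked by the term itself, so no more is read from its shares. Of the 1378 genes called for the double mutant against wild type, 917 (66.5%) exceeded the sum, 257 fell short and 204 reversed it. Those genes were picked for a large double mutant change, so no more is read from that share. In 683 of them (49.6%) both single mutants were within 0.5 (log2) of wild type, against 69.8% of all genes tested.

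How genes sorted depended on which RUNX1 mutant library was used. With the first library alone, 1977 of 12347 genes (16%) were called, of which 91 exceeded the sum, 981 fell short and 905 reversed it. With the second alone, 1085 of 12188 genes (8.9%) were called, of which 341 exceeded the sum, 91 fell short and 653 reversed it. In these fits the wide spread of the RUNX1 mutant pair no longer enters the error estimate, and the remaining library is taken to be as variable as the rest. In both fits 439 genes were called, 19 of them in opposite directions. The other 420 (3.38% of those tested), 235 above (1.89%) and 185 below the sum (1.49%), are 21.2% of the first fit's calls and 38.7% of the second's. The count and its balance depend on the processing: without scaling there were 369, with 90 above and 279 below the sum, against a term of at least log2 1 there were 9, and with all 12 libraries 1. By the 8-library values 58 of them exceeded the sum, 67 fell short and 295 reversed it, and 371 kept 1 class in both fits. The sign of the term was the same in all 16 combinations of 1 library per group for each of them, as for 4745 of all genes tested (38.2%). That follows largely from how the 420 were picked, by calls of 1 sign in both fits of the same libraries, and is no separate support. This set was defined after the data were seen, and apart from Tcf7 and Tcrg-C2 none of its genes passed the adjusted threshold with all 8 libraries. In 84 of the 420 (20%) a group mean was under 1 scaled TPM, against 14.6% of all genes tested. The pseudocount of 1 sets part of the size of those terms, among them Lck, Ngfr, Sdc1, Myl10, Tlr1 and Upp1. On a linear TPM scale 419 of the 420 terms had the same sign, as did 96.1% of all genes tested. The exception was Upp1, a uridine phosphorylase gene, with 0.515 and 0.147 scaled TPM in double mutant, 5.47 and 4.96 in CBL mutant, 5.88 and 7.01 in RUNX1 mutant and 12.1 and 12.7 in wild type libraries and a log2 term of -1.39 ± 0.29 (SE, adjusted p = 0.118 by limma).

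**Figure D2:**
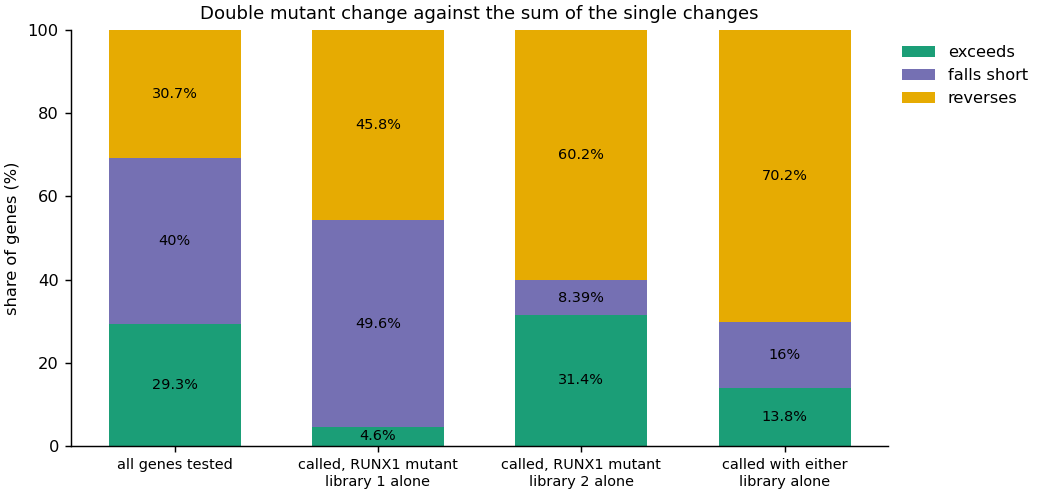
Share of genes (%) whose double mutant change exceeded, fell short of or reversed the sum of the single mutant changes, for all genes tested and for genes called with the first RUNX1 mutant library alone, the second alone or either. Genes that fell short were 49.6% of calls with the first library and 8.39% with the second, while reversal was 45.8% and 60.2%.

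Of the 58 genes in that set that exceeded the sum, 34 (58.6%) were within 0.5 (log2) of wild type in both single mutants, against 77.4% of all tested genes that exceeded it. Fbp1, which encodes the gluconeogenic enzyme fructose bisphosphatase, had 62 and 82.6 scaled TPM in double mutant, 12.3 and 17.3 in CBL mutant, 14 and 15.4 in RUNX1 mutant and 11.3 and 12 in wild type libraries. Both double mutant libraries lay well above the other 6. Fbp1 rose by 2.52 (log2) in the double mutant against wild type (adjusted p = 0.00223), and its term was 1.90 ± 0.28 (SE, adjusted p = 0.0749). Ecm1, a secreted matrix glycoprotein gene, had 49.2 and 47.7 scaled TPM in double mutant, 4.28 and 5.59 in CBL mutant, 16.7 and 8.93 in RUNX1 mutant and 6.75 and 7.99 in wild type libraries, with a term of 2.40 ± 0.38 (SE, adjusted p = 0.0946). Tlr1, a receptor for bacterial lipopeptides, had 7.31 and 7.15 scaled TPM in double mutant, 0.804 and 0.883 in CBL mutant, 4.02 and 4.0 in RUNX1 mutant and 1.86 and 1.86 in wild type libraries. In Tlr1 the double mutant thus lay above a CBL mutant level that was the lowest of the 4 groups. Glul, the glutamine synthetase gene, had terms of 1.57 and 1.83 with the first and the second RUNX1 mutant library alone.

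The genes of this class that are named here and lay below the sum were lowest in the double mutant. Alox5, the lipoxygenase that starts leukotriene synthesis, had 22 and 22.7 scaled TPM in double mutant, 84.9 and 72.6 in CBL mutant, 68.8 and 91.7 in RUNX1 mutant and 82.9 and 85.8 in wild type libraries. No single mutant library reached as low as the double mutant ones, and the term was -1.68 ± 0.23 (SE, adjusted p = 0.0749). Tob1, which encodes an antiproliferative protein that recruits the deadenylation machinery, had 2.06 and 1.85 scaled TPM in double mutant, 19.8 and 18.2 in CBL mutant, 8.47 and 14.1 in RUNX1 mutant and 18.2 and 19.7 in wild type libraries. Its term was -2.02 ± 0.31 (SE, adjusted p = 0.0894), and the double mutant change against wild type of -2.75 was called (adjusted p = 0.00224). Smim5, a small membrane protein gene, had terms of -1.80 and -1.85 with the first and the second RUNX1 mutant library alone.

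Genes that fell short had single mutant changes that the double mutant did not show in full, and in 40 of the 67 (59.7%) the double mutant lay within 0.5 (log2) of wild type, against 70.0% of all tested genes that fell short. Ngfr, the p75 neurotrophin receptor gene, had 74.5 and 82.5 scaled TPM in double mutant, 0.0299 and 0.0424 in CBL mutant, 37.6 and 179.7 in RUNX1 mutant and 195 and 194 in wild type libraries. The CBL mutant libraries were near 0 and the double mutant ones at less than wild type, so the sum of the single changes was far larger than the double mutant change, and the term was 7.49 ± 0.86 (SE, adjusted p = 0.0671). How the mutations were introduced is not given, so reads of mouse Ngfr and of any introduced sequence cannot be told apart. Sdc1, the syndecan found on plasma cells and early B cells, had 2.93 and 2.65 scaled TPM in double mutant, 0.162 and 0.151 in CBL mutant, 1.24 and 2.52 in RUNX1 mutant and 6.21 and 7.57 in wild type libraries, and a term of 3.19 ± 0.37 (SE, adjusted p = 0.0671). Trim13, a ubiquitin ligase gene of the endoplasmic reticulum, had 4.49 and 4.16 scaled TPM in double mutant, 11.9 and 10.01 in CBL mutant, 6.97 and 4.71 in RUNX1 mutant and 4.01 and 3.66 in wild type libraries, with a term of -1.64 ± 0.29 (SE, adjusted p = 0.109). Here the double mutant lay near wild type and the CBL mutant above it.

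Within the 420, the 295 genes that reversed the sum were the most frequent class, 181 above and 114 below it, whereas over all genes tested, and with the first RUNX1 mutant library alone, falling short was more frequent. The 420 were picked by the term, which is the double mutant change minus that sum, so no more is read from the contrast with all genes. Chchd10, which encodes a protein of the mitochondrial intermembrane space, had 31.4 and 46.6 scaled TPM in double mutant, 15.2 and 11.7 in CBL mutant, 7.89 and 8.20 in RUNX1 mutant and 19.5 and 21.2 in wild type libraries. All 4 single mutant libraries were below wild type and both double mutant libraries above it, with a term of 2.69 ± 0.29 (SE, adjusted p = 0.0671). Pla2g12a, a secreted phospholipase gene, had the same order of groups, with 21.1 and 26.1 scaled TPM in double mutant, 9.58 and 11.5 in CBL mutant, 8.51 and 8.15 in RUNX1 mutant and 16.1 and 18 in wild type libraries. Its term was 2.04 ± 0.22 (SE, adjusted p = 0.0671). Pf4, the platelet chemokine made by megakaryocytes, had 44.4 and 21.8 scaled TPM in double mutant, 0.768 and 1.52 in CBL mutant, 35.7 and 25.7 in RUNX1 mutant and 18.8 and 24.3 in wild type libraries. Pf4 fell in the CBL mutant against wild type by a log2 change of -3.41 (adjusted p = 0.0144), and in the double mutant its level overlapped wild type. Its term was 3.45 ± 0.50 (SE, adjusted p = 0.0749). Myl10, a myosin light chain gene, moved the other way, with 0.990 and 0.312 scaled TPM in double mutant, 49.0 and 63.7 in CBL mutant, 1.77 and 2.09 in RUNX1 mutant and 9.95 and 13.2 in wild type libraries, and a term of -3.05 ± 0.36 (SE, adjusted p = 0.0714).

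**Figure D3:**
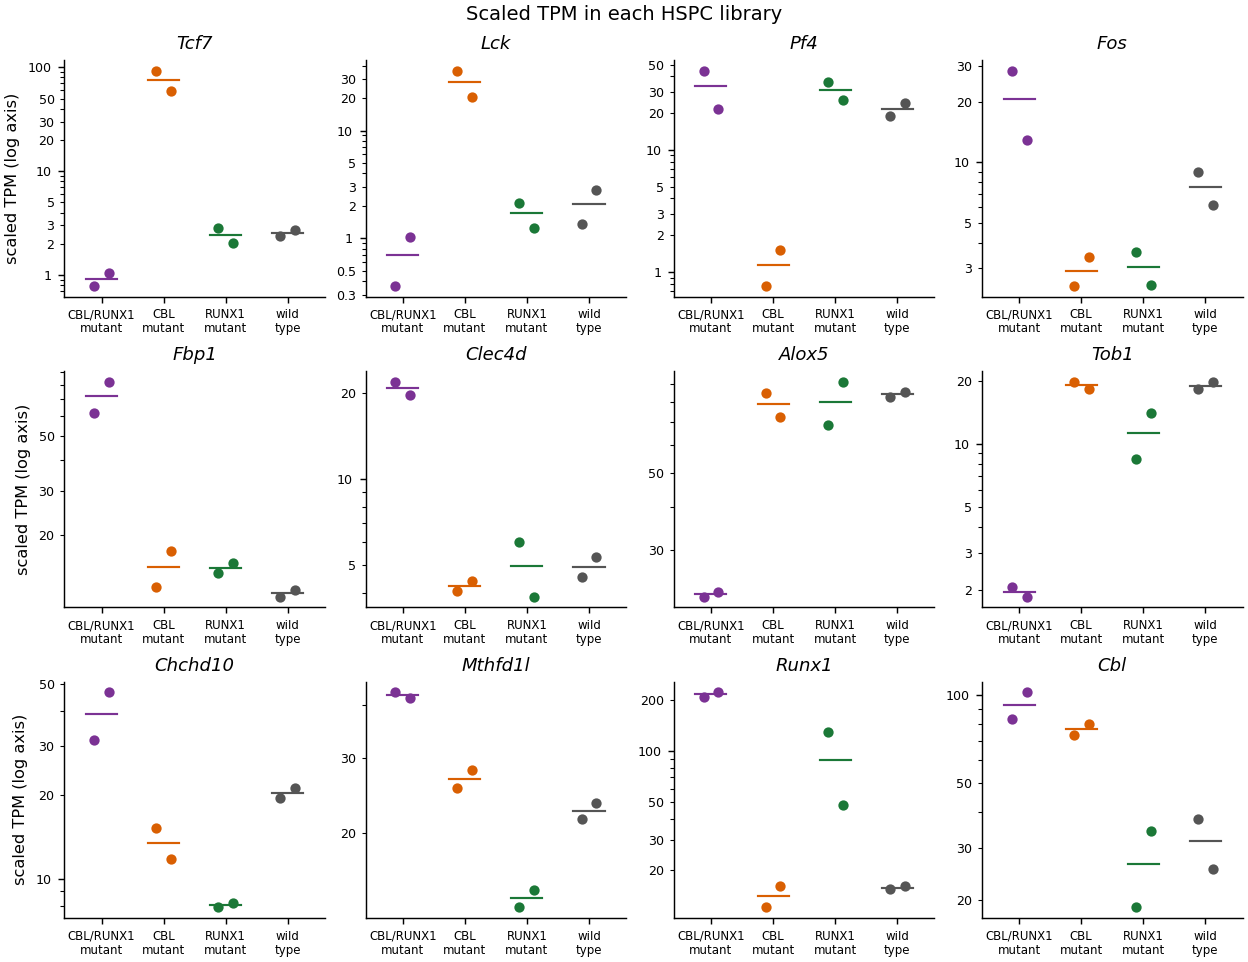
Scaled TPM (log axis) of 12 genes in each of the 8 HSPC libraries, with the CBL/RUNX1 mutant left and wild type right; points are libraries and bars are means of 2. Tcf7 and Lck are high in CBL mutant libraries alone, Pf4 is low in them alone, Fbp1 and Clec4d are high and Alox5 and Tob1 low in the double mutant, and Chchd10 is lowest in the RUNX1 mutant and highest in the double mutant.

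The targeted genes themselves are the check of the labels. Runx1 (chromosome 16, 92601466 to 92826149) had 208 and 221 scaled TPM in double mutant, 12.2 and 16.1 in CBL mutant, 129 and 48.5 in RUNX1 mutant and 15.5 and 16.1 in wild type libraries. All 4 libraries labelled with mutant RUNX1 exceeded the 4 without, and the term of 1.58 ± 0.57 (SE, adjusted p = 0.203) did not pass the test. Cbl (chromosome 9, 44142976 to 44234049) had 83.3 and 102 scaled TPM in double mutant, 73.4 and 80.1 in CBL mutant, 18.9 and 34.3 in RUNX1 mutant and 37.8 and 25.6 in wild type libraries, and a term of 0.54 ± 0.42 (SE, adjusted p = 0.511). All 4 libraries labelled with mutant CBL exceeded the 4 without. Reads of the mouse genes and of any transgene cannot be told apart in these values.

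Nuclear genes of mitochondrial energy production lay above the sum of the single changes almost throughout, though none passed the adjusted threshold. Of 76 tested genes of the respiratory chain, which builds the proton gradient that drives ATP synthesis, 73 had a term above 0 and 53 an unadjusted p under 0.05, all above 0. Over all genes tested, 51.8% of terms were above 0 and 11.5% were above 0 with an unadjusted p under 0.05, which is the background for the lists that follow. Their median term was 0.67 with 8 libraries and 0.83 and 0.54 with the first and the second RUNX1 mutant library alone. The sum was reversed in 52. The median change against wild type was 0.17 for the double mutant, -0.20 for the CBL mutant and -0.38 for the RUNX1 mutant, and the list's mean levels in the double mutant and wild type libraries overlapped. Against wild type, 2 of the 76 were called higher and 1 lower in the double mutant, and none in either single mutant. Ndufb4, a subunit of complex I, had 49.6 and 58.7 scaled TPM in double mutant, 34.6 and 38.5 in CBL mutant, 28.2 and 30.8 in RUNX1 mutant and 41.4 and 50.6 in wild type libraries, with a term of 1.17 ± 0.21 (SE, adjusted p = 0.109). Mitochondrial ribosomal protein genes, which build the organelle's own translation machinery, gave 76 of 77 terms above 0, 42 with an unadjusted p under 0.05, and a median of 0.61 (0.60 and 0.59 with either RUNX1 mutant library alone). Mrps33 had 70.9 and 81.1 scaled TPM in double mutant, 44.6 and 48.9 in CBL mutant, 34.1 and 44.9 in RUNX1 mutant and 60.6 and 72.7 in wild type libraries. Of the 77 genes, 10 were among the 420, all above the sum, beside 1.89% of all genes.

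Proteasome genes, whose products degrade ubiquitin-tagged proteins, showed the same order, with 36 of 37 terms above 0, 29 with an unadjusted p under 0.05 and a median term of 0.68. Psmc5, a subunit of the regulatory particle, had 128 and 147 scaled TPM in double mutant, 92.5 and 101 in CBL mutant, 76.0 and 74.7 in RUNX1 mutant and 96.6 and 113 in wild type libraries. The exception was Psma8, a testis form of a core subunit, with 2.57 and 3.42 scaled TPM in double mutant, 0.30 and 0.0314 in CBL mutant, 7.33 and 6.85 in RUNX1 mutant and 0.124 and 0.0573 in wild type libraries. Cytosolic ribosomal protein genes differed in form: 78 of 81 terms were above 0 with a median of 0.32, and 52 exceeded the sum. Without scaling the median term of all genes was -0.25 in place of 0.03. The medians were then 0.34 for the respiratory chain, 0.29 for mitochondrial ribosomal proteins and 0.38 for the proteasome, while that of cytosolic ribosomal proteins was -0.005. The summed level of the 8 neutrophil markers was 70281 and 88018 scaled TPM in double mutant, 304132 and 244236 in CBL mutant, 108578 and 329257 in RUNX1 mutant and 390255 and 493515 in wild type libraries, and its part in the list medians was not tested.

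**Figure D4:**
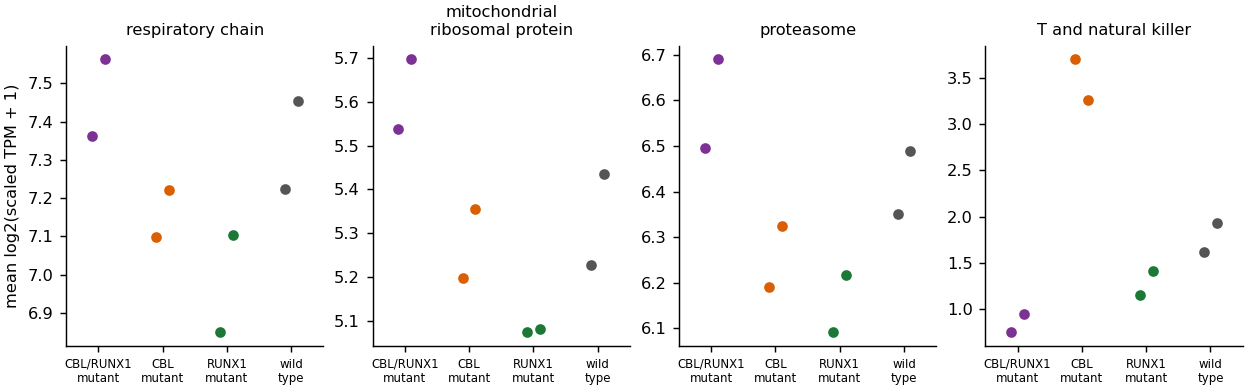
Mean log2(scaled TPM + 1) of 4 gene lists in each HSPC library, with the CBL/RUNX1 mutant left and wild type right; each point is 1 library. For the respiratory chain the double mutant libraries are at 7.36 and 7.56, the CBL mutant at 7.10 and 7.22, the RUNX1 mutant at 6.85 and 7.10 and wild type at 7.22 and 7.45, while T and natural killer genes are highest in the CBL mutant.

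Genes of folate and serine metabolism, which supplies carbon units for nucleotides, were mostly above the sum. Mthfd1l, the mitochondrial enzyme that releases formate, had 42.9 and 41.6 scaled TPM in double mutant, 25.6 and 28.2 in CBL mutant, 13.4 and 14.8 in RUNX1 mutant and 21.6 and 23.5 in wild type libraries. The replicates were tight in every group, and the term was 1.28 ± 0.17 (SE, adjusted p = 0.0748). Mthfd1, its cytosolic relative, had 36.2 and 37.4 scaled TPM in double mutant, 27.2 and 30.6 in CBL mutant, 18.8 and 20.5 in RUNX1 mutant and 36.9 and 37.7 in wild type libraries, so that the double mutant did not show the lower level of the single mutants. Shmt2, the mitochondrial serine hydroxymethyltransferase, had 102 and 99.9 scaled TPM in double mutant, 63.7 and 66.3 in CBL mutant, 47.1 and 39.2 in RUNX1 mutant and 53 and 53.6 in wild type libraries. Of the 13 tested genes of the list, 12 had a term above 0, 7 an unadjusted p under 0.05, all above 0, and the median term was 0.66, beside 51.8%, 11.5% and 0.03 over all genes. Antioxidant enzymes had 17 of 20 terms above 0, 10 with an unadjusted p under 0.05 and a median of 0.54. Glycolysis genes had 15 of 18 terms above 0 and a median of 0.64, near that of the respiratory chain. Endoplasmic reticulum stress genes had 13 of 18 above 0 and a median of 0.42. Terms above 0 were thus not particular to mitochondrial and proteasome genes.

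Signalling genes downstream of growth factor receptors showed a mixed picture. Among immediate early genes, which growth factor signalling induces within minutes, Fos had 28.4 and 12.9 scaled TPM in double mutant, 2.44 and 3.38 in CBL mutant, 3.59 and 2.48 in RUNX1 mutant and 9.0 and 6.14 in wild type libraries. The 4 single mutant libraries were below both wild type ones and the double mutant ones above them, with a term of 3.46 ± 0.53 (SE, adjusted p = 0.0882). Jun, the partner of Fos in AP-1, had 6.11 and 5.97 scaled TPM in double mutant, 1.74 and 1.01 in CBL mutant, 1.58 and 1.01 in RUNX1 mutant and 1.29 and 1.01 in wild type libraries. Dusp1, a phosphatase that turns MAP kinases off, had terms of 1.41 and 1.87 with the first and the second RUNX1 mutant library alone. Of the 13 immediate early genes tested, 5 had an unadjusted p under 0.05 above 0 and 1 below. In the RAS-MAPK feedback list, 10 of 12 terms were above 0 with a median of 0.45, but only Spry2 (0.83 ± 0.28, SE, adjusted p = 0.183) and Phlda1 (-1.22 ± 0.24, SE, adjusted p = 0.113) had an unadjusted p under 0.05. Phlda1, a target of ERK signalling, had 2.48 and 1.92 scaled TPM in double mutant, 6.15 and 5.62 in CBL mutant, 7.16 and 7.53 in RUNX1 mutant and 6.42 and 7.04 in wild type libraries, lower in the double mutant alone. Cdkn1b, the cyclin-dependent kinase inhibitor p27, had terms of -0.98 and -1.34 with the first and the second RUNX1 mutant library alone. Among JAK-STAT output genes 6 of 14 terms were above 0, beside 51.8% of all genes, and the median was -0.20. By limma 2 of the 14 had an unadjusted p under 0.05, both below 0, beside 7.8% of all genes.

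Monocyte and macrophage genes had 15 of 16 terms above 0, 6 with an unadjusted p under 0.05 and a median of 0.61, beside 51.8% and 11.5% of all genes and a median of 0.03. F13a1, the coagulation factor XIII subunit made by monocytes and megakaryocytes, had 312 and 450.4 scaled TPM in double mutant, 52.2 and 83.9 in CBL mutant, 125 and 76.8 in RUNX1 mutant and 95 and 101 in wild type libraries, and a term of 2.48 ± 0.45 (SE, adjusted p = 0.109). The 8 monocyte markers summed to 1020 and 1104 scaled TPM in double mutant, 1570 and 2524 in CBL mutant, 446 and 1304 in RUNX1 mutant and 2105 and 2413 in wild type libraries, with Ly6c2 the largest contributor in each library. Without Ly6c2 and F13a1 the other 6 summed to 214 and 114 in double mutant, 85.9 and 112 in CBL mutant, 107 and 127 in RUNX1 mutant and 100.2 and 110.3 in wild type libraries. Of the 8, 7 had a term above 0, and their part in the result was not tested. The complement gene C1qb had terms of 1.84 and 1.36 with the first and the second RUNX1 mutant library alone. Clec4d, a C-type lectin of myeloid cells, had 22 and 19.7 scaled TPM in double mutant, 4.06 and 4.39 in CBL mutant, 6.02 and 3.87 in RUNX1 mutant and 4.55 and 5.32 in wild type libraries, and a term of 2.08 ± 0.29 (SE, adjusted p = 0.0749). Of the 18 mature neutrophil genes tested it was the only member with an unadjusted p under 0.05.

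The medians of several lineage lists, though not of all, depended strongly on the RUNX1 mutant library used. Primary granule genes had a median term of 0.83 with 8 libraries, and 1.03 and 0.87 with the first and the second RUNX1 mutant library alone. Their median was 0.34 without the first CBL mutant library and 1.18 without the second. Of the 12 tested, 9 had a term above 0. Monocyte and macrophage genes also kept their sign (0.82 and 0.60), as did the list that holds Tcf7 (-1.53 and -2.13). The median term of mature neutrophil genes was -0.77 with 8 libraries, 0.07 with the first RUNX1 mutant library alone and -1.47 with the second, and that of secondary and tertiary granule genes was -0.70, 0.18 and -1.57. Ltf, the granule protein lactoferrin, had 583 and 358 scaled TPM in double mutant, 3846 and 3466 in CBL mutant, 1184 and 4938 in RUNX1 mutant and 4659 and 4921 in wild type libraries, so its term was -0.98 or -3.05 depending on that library. Erythroid genes had a median term of 1.10, which was 2.03 with the first and 0.16 with the second RUNX1 mutant library alone. Cell cycle genes had 26 of 27 terms above 0, with a median of 0.55 that was 0.93 and 0.15 with either library. Stem cell regulators had a median of -0.40, which was -0.61 and 0.14. Mecom, a transcription factor of blood stem cells, was lower than wild type in all mutants, at 0.413 and 0.701 scaled TPM in double mutant, 20.2 and 13.6 in CBL mutant, 3.15 and 1.74 in RUNX1 mutant and 83.5 and 67.6 in wild type libraries. All 3 of its changes against wild type were called, and its term of 0.99 ± 0.38 (SE, adjusted p = 0.226) was not.

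**Figure D5:**
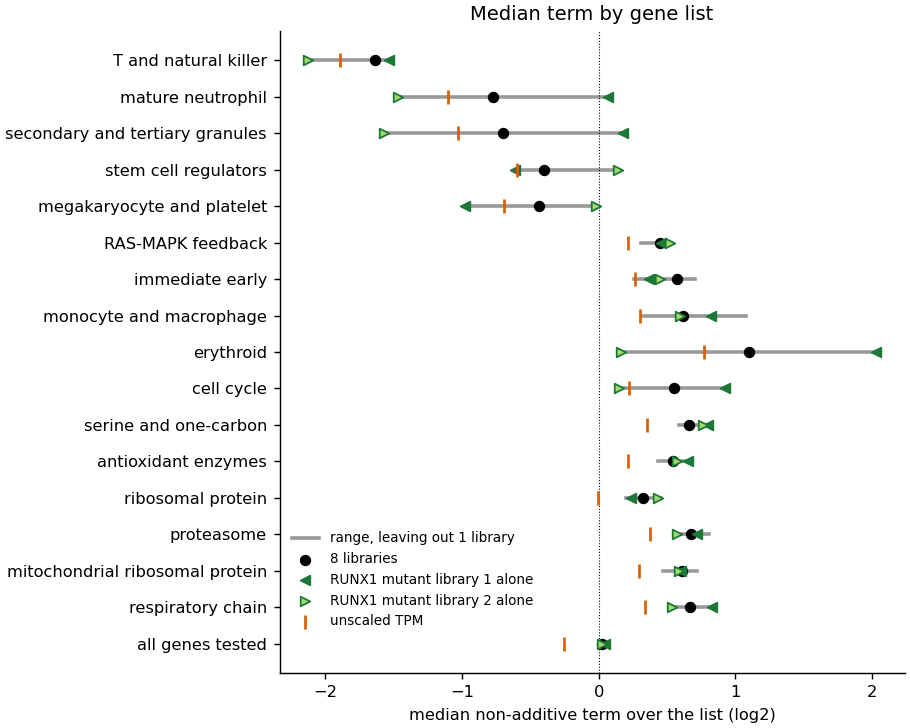
Median non-additive term (log2) of 16 gene lists and of all genes tested with 8 libraries (black), with each RUNX1 mutant library alone (green triangles), with any 1 library left out (grey range) and without scaling (orange). Respiratory chain, mitochondrial ribosomal and proteasome medians stay above 0 in all of these, T and natural killer genes stay below 0, and the mature neutrophil, secondary and tertiary granule and stem cell lists cross 0 between the 2 RUNX1 mutant libraries.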

How the data were processed

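Total RNA of 8 HSPC libraries (4 groups of 2) was compared. The authors deposited 1 table of TPM for 28987 genes in 12 libraries. Per the submitters' processing notes, the tools were kallisto, bcl2fastq and CASAVA 1.8, and the build mm10; the annotation and gene summing are not given in the sources used here. TPM carry no read numbers, so depth is unknown and no counting interval is given. TPM sums were 965476 to 975500. The planned fallback for normalized values was used: TMM scaling (trims 0.3 and 0.05), log2(TPM + 1) and limma 3.58.1 in R 4.3.3 with trend and robust moderation, 1 mean per group, 4 residual degrees of freedom, and Benjamini-Hochberg adjustment over 12421 genes, called under 0.05. All tests are two-sided. The labels say that marrow came from individual mice but tie no library to an animal, so p-values cover only the spread between these samples. Symbols were found for 27458 identifiers (94.7%).

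Members, lists and tests were chosen with earlier results of these data known. Named genes are Cbl and Runx1, called genes whose log2 level averaged 2 or more, with 1 sign in all 16 combinations of 1 library per group, filled to 2 per class and direction by smallest p, and per list the smallest p. Tcrg-C2, genes named from the 420, and Gzma, Trbc1, Nkg7, Cd3e, Shmt2, Jun, Dusp1, C1qb, Spry2, Psma8, Mecom and Kit were added after their values were seen. Alternatives were other scalings, filters and pseudocounts, a replicate block, all 12 libraries, other moderation and leaving out each library. Same-numbered libraries deviated together with correlations of -0.005 to 0.186 over 6 pairs of groups, so numbers were not taken to pair samples. The script was tested on simulated data in which each gene had 1 spread shared by all 4 groups. The wider spread of the RUNX1 mutant pair was not simulated, so that test says nothing about the calls made here.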

Additional observations from a re-analysis of the deposited data

Results flagged for a closer look

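Both called genes are flagged because the effect of the CBL mutation differed with the RUNX1 genotype by the test of the difference itself. Tcf7 had a non-additive term of -5.24 (adjusted p = 0.00849 by limma), with 0.786 and 1.04 scaled TPM in double mutant and 92.4 and 59.1 in CBL mutant libraries. Tcrg-C2 had a term of -4.83 (adjusted p = 0.00849 by limma). For both genes the term was below 0 in all 16 combinations of 1 library per group, which is no separate support, since the calls rest on the same libraries. Each group held 2 libraries, too few to look for a single library that stands apart by value.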

How the results depend on the processing

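For the 81 genes recomputed under each alternative no term changed sign. Genes added for description and markers such as Kit are not among them. Most of the 81 were picked from these same libraries for a small p or for 1 sign of the term, so this was largely fixed by the choice. The 2 calls held under RLE and upper-quartile scaling, a filter of 5 TPM, without abundant genes and against a term of at least log2 1. Without scaling 16 genes were called (5 fell short, 11 reversed; 4 above, 12 below the sum), with no filter 1 (reversed), with a pseudocount of 0.1 there were 2 (Tcf7 and 1 other; 1 fell short, 1 reversed) and with a pseudocount of 5 there were 4 (1 fell short). With all 12 libraries in the fit 2 other genes were called (1 fell short, 1 reversed), without trend and robust moderation 25 (1 exceeded, 10 fell short, 14 reversed), and with array weights 6 (3 fell short). With the replicate number as a block, 0 genes were called and 0 reversed by limma, with 2833 at an unadjusted p under 0.05 and adjusted p = 0.063 for both Tcf7 and Tcrg-C2. Same-numbered libraries did not correlate above 0.1 in every pair, so the block is only an alternative.

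The 420 genes called with either RUNX1 mutant library alone became 110 with no filter, 960 with the replicate block, 1 with all 12 libraries, 237 without trend and robust moderation and 9 against a term of at least log2 1. Without scaling they were 369, with 90 above and 279 below the sum, and 214 shared. Leaving out 1 library in turn gave 0 to 1977 called genes (0 to 341 exceeding, 0 to 981 falling short, 0 to 905 reversing) and 36 to 668 of the second kind. The count was 0 by limma without any 1 of the 6 libraries that are not RUNX1 mutant, with 1274 to 2009 at an unadjusted p under 0.05. Read depth is unknown, so precision rests on the spread between 2 libraries a group, and the cause of the moved counts was not tested.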
